A study of Homo sapiens and Mus musculus with 7 samples.

Results

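The regions described here are the broad, moderately scored KAP1 peaks of mouse erythroblasts: peaks on chromosomes 1 to 19 that are at least 1300 bp wide and have a score below 100. This rule selected 937 of 44780 autosomal peaks, or 2.09%, and the whole list held 45024 peaks. The peaks came from chromatin immunoprecipitation with sequencing of bone marrow cells sorted as CD71+Ter119+. CD71 is the transferrin receptor and Ter119 an erythroid surface antigen, and cells carrying both are nucleated red cell precursors. The mice carried the alleles written Kap-flox/stopfloxYFP, were of mixed strain, 8 to 12 weeks old, and labelled KAP1 WT. There was 1 KAP1 library, 1 library made with control IgG and 1 of total input chromatin. The KAP1 antibody was raised against residues 20 to 418 of the protein. The number of mice behind each library is not stated, and with 1 list there is no replicate of any value below. The list holds no read counts, so the depth is unknown. The sorted cell type could not be checked against markers, because no expression was measured in these cells.

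KAP1, also called TRIM28, is a corepressor that does not bind DNA sequence itself. KRAB zinc finger proteins carry it to their target sites, and there it gathers the histone methyltransferase SETDB1, HP1 proteins and histone deacetylases. The chromatin around such a site takes on trimethylated lysine 9 of histone H3, a mark that can spread beyond the site where KAP1 arrived. In the red cell lineage KAP1 is known as a regulator of maturation. A peak can differ from others both in how strongly it stands out and in how far it extends.

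The members were chosen by width and score, so both are given as a description. The score is the authors' own value per peak, its scale is not stated in the file, and the lowest in the list is 50. Members had a median width of 1455 bp, with quartiles of 1364 and 1611 bp and a maximum of 6570 bp. Their median score was 74.3, with quartiles of 61.7 and 86.2. The median width of all autosomal peaks was 645 bp and their median score 63.3. Of the 1461 autosomal peaks at least 1300 bp wide, 64.1% were members, and the other 524 had scores of 100 or more.

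**Figure D1:**
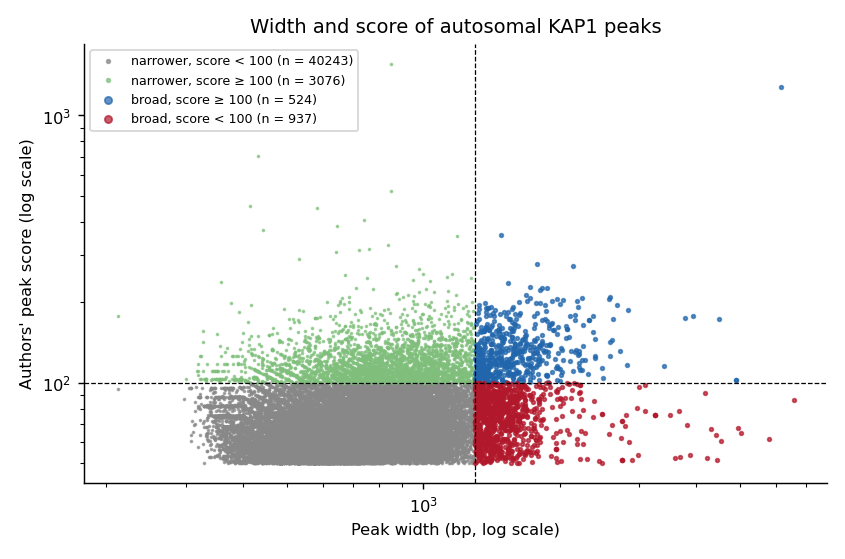
Each point is an autosomal KAP1 peak, with its width in bp on the horizontal axis and the authors' score on the vertical axis, both on log scales. Dashed lines mark the limits of 1300 bp and 100, and the 937 members fill the lower right corner out to 6570 bp.

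The limits cut through a continuous range. Just inside the score limit stood chr11:118311747-118313074 with 99.97, chr4:106881844-106883918 and chr17:31032957-31034823 with 99.94 each, chr5:117890245-117891563 with 99.91 and chr7:133028501-133029926 with 99.77. The broad peaks just outside it were chr19:3154243-3155590 with 100.13, chr5:119779079-119780521 with 100.19, chr10:77920384-77921963 and chr2:104061061-104062474 with 100.22 each, and chr6:48580871-48582304 with 100.47. At the width limit, 4 members measured exactly 1300 bp, among them chr1:138062479-138063778 with a score of 69.4, and the next was chr11:77760727-77762027 with 1301 bp. Just under it, 4 peaks measured 1299 bp, among them chr12:87706160-87707458 with a score of 89.7, and chr14:54282337-54283634 measured 1298 bp.

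Scores of the members covered the whole range that the rule allows. There were 200 with scores from 50 to below 60, 187 from 60, 206 from 70, 193 from 80 and 151 from 90 to below 100. The lowest were chr11:86685017-86686317 with 50.02 and chr10:86080729-86083212 with 50.04, followed by chr4:153526548-153528106 with 50.10, chr12:112046671-112048281 with 50.20 and chr4:42341042-42342671 with 50.27. Across all autosomal peaks wider peaks tended to have higher scores, with a Spearman rho of 0.29. Within the members rho was 0.0086, over a range of widths and scores that the rule had cut on both axes. Peaks of 1 library share its depth and background, so these are descriptions of that library.

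Most members were only a little wider than the limit. There were 548 of 1300 to below 1500 bp, 314 of 1500 to below 2000 bp, 54 of 2000 to below 3000 bp and 21 of 3000 bp or more. The 21 longest had a median score of 67.95 and the class of 1300 to below 1500 bp one of 74.0, both under the limit that the rule sets on the score. A further 7 peaks of 3000 bp or more had scores of 100 or more. The widest was chr12:89099586-89106155, which spans 6570 bp with a score of 86.5. It was followed by chr17:13513446-13519238 with 5793 bp and a score of 61.6, chr8:19986686-19991702 with 5017 bp and 65.1, chr17:13219607-13224551 with 4945 bp and 67.95, and chr12:20235875-20240408 with 4534 bp and 60.3. Chromosome 17 held 10 of the 21 longest members. Among these, 4 lay together at chr17:6519701-6633879, with widths of 3594 to 4445 bp and scores of only 51.4 to 53.5, and no other peak was listed between them.

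The members were distributed unevenly over the autosomes. They made up 4.35% of the peaks of chromosome 17 (85 of 1956, exact Clopper-Pearson 95% interval 3.49 to 5.35) and 0.847% of those of chromosome 16 (13 of 1535, 0.452 to 1.44). The interval lay above the autosomal share of 2.09% on 4 chromosomes, which were 17, 15 with 3.37%, 4 with 2.97% and 7 with 2.66%. It lay below it on 5 chromosomes, which were 16, 3 with 0.867%, 18 with 1.01%, 6 with 1.42% and 1 with 1.44%. These intervals treat peaks as independent and cover counting error only. Per megabase between the first and last peak of a chromosome, there were 0.128 members on chromosome 3 and 0.922 on chromosome 17. Over the 19 chromosomes, the share of members and the number of all peaks per megabase had a Spearman rho of 0.74. Both come from 1 library, and the part of peak density in the share of members was not tested.

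Broad peaks with scores of 100 or more were also most frequent on chromosome 17, where they were 1.94% of peaks (1.38 to 2.66), next to 1.81% (1.36 to 2.36) on chromosome 5. They were least frequent on chromosome 3 with 0.304% (0.122 to 0.624). Chromosome 16 held 16 of them, or 1.04% (0.597 to 1.69), close to their autosomal share of 1.17%. On that chromosome alone the broad peaks with high scores outnumbered the members.

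**Figure D2:**
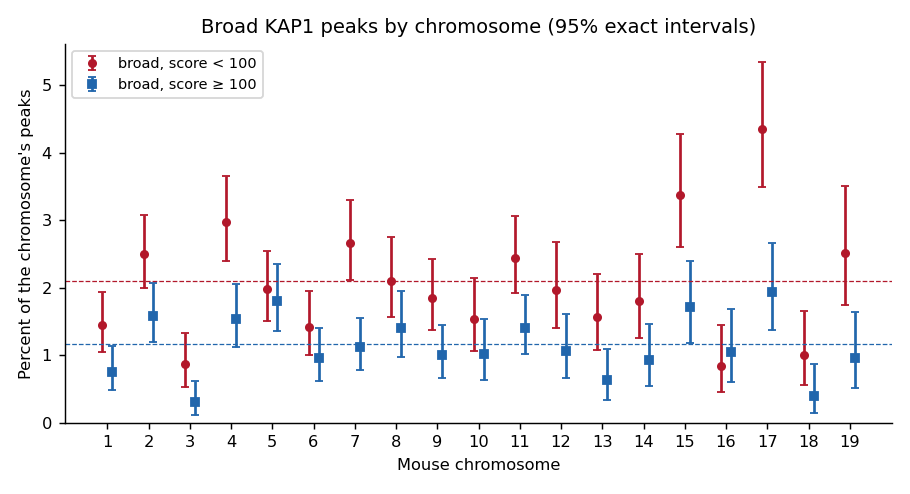
Percent of each mouse chromosome's KAP1 peaks that are members (red circles) or broad peaks with a score of 100 or more (blue squares), with exact 95% intervals and the autosomal shares as dashed lines. Members reach 4.35% on chromosome 17 and fall to 0.847% on chromosome 16.

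The share of members was somewhat lower in the inner parts of the chromosomes than at both ends. With each chromosome divided into 5 equal parts between its first and last peak, members were 2.39% of peaks in the first part (2.06 to 2.75) and 2.39% in the last (2.12 to 2.68). In the parts between, in order along the chromosome, they were 1.79% (1.52 to 2.11), 1.74% (1.46 to 2.04) and 2.04% (1.76 to 2.36). The interval of the middle part lay below that of the last and, by a narrow margin (2.04 against 2.06), below that of the first. That of the second part lay below that of the last and overlapped that of the first. The interval of the part next to the last overlapped both. The first part held 189 members, among them the 18 of the repeating run on chromosome 14 described below. Its share was not taken with repeated peaks counted once, so its separation from the middle part may rest on that run. Of 504 windows of 5 Mb that held a peak, 235 held no member, and 17 windows held 10 or more and together 230 members. The fullest windows had 20 members each. One was 25 to 30 Mb on chromosome 14, where they were 14.6% of 137 peaks, and the other 75 to 80 Mb on chromosome 15, where they were 10.1% of 198. Of the 20 on chromosome 14, 18 lay in 1 run whose peaks repeat, described below, and are not all separate observations. The window from 120 to 125 Mb on chromosome 8 held 17 of 191, and that from 30 to 35 Mb on chromosome 17 held 16 of 168.

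Position was not used by the rule, so the spacing of the members could be compared with that of other peaks. The median distance between the centre of a member and the nearest other peak was 10202.5 bp (95% interval of the median 9103.5 to 11111 bp). It was 13487.5 bp (13263 to 13699) for the 40243 narrower peaks with scores below 100, and 9609 bp (8631.5 to 10720) for broad peaks with higher scores. Another peak lay within 10 kb of 49.4% of members (46.2 to 52.7), of 40.9% of the narrower peaks (40.4 to 41.4) and of 51.3% of the broad peaks with higher scores (47.0 to 55.7). The interval of the members lay above that of the narrower peaks as a whole and overlapped that of the higher-scoring broad peaks. Narrower peaks of 1000 to below 1300 bp with scores below 100 had nearly the members' values, with a median of 10095.5 bp (9583 to 10611) and a neighbour within 10 kb for 49.7% (47.9 to 51.5). Below 1300 bp the share rose gradually with width, from 35.5% (34.4 to 36.6) for peaks under 500 bp. The difference was thus not particular to the members. Within the members the share did not keep rising. It was 48.5% from 1300 bp, 53.2% from 1500 bp, 42.6% (29.2 to 56.8) from 2000 bp and 33.3% (14.6 to 57.0) from 3000 bp. The median distance was shorter for members than for the narrower peaks as a whole on 16 of 19 chromosomes. It was longer on chromosomes 5 (13712.5 against 12337 bp), 13 (22818.5 against 15056 bp) and 17 (12447.5 against 12306.5 bp).

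**Figure D3:**
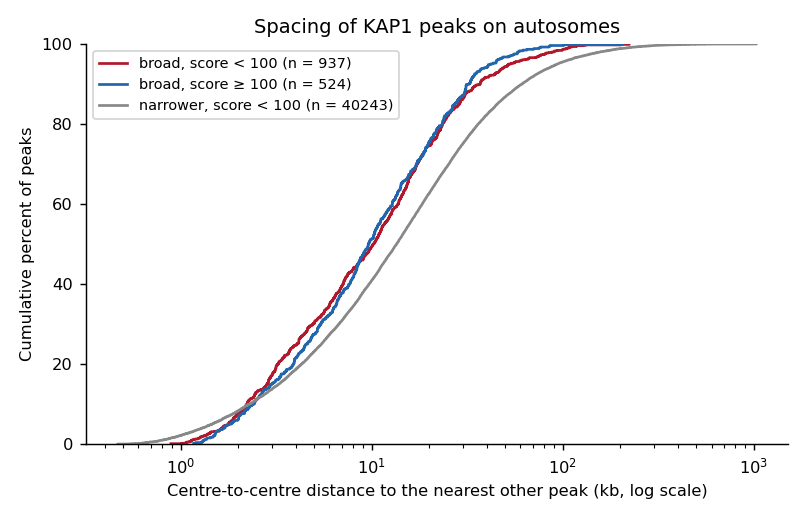
Cumulative percent of peaks against the centre-to-centre distance to the nearest other peak, in kb on a log scale. The curve of the members reaches 49.4% at 10 kb and runs with that of the higher-scoring broad peaks, while the narrower peaks reach 40.9%.

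For a minority of members the gap to a neighbouring peak was small. For 103 members, or 11.0% (9.06 to 13.2), another peak began or ended within 1 kb of an edge, against 6.52% (6.28 to 6.76) of the narrower peaks. The share was 9.73% (7.33 to 12.6) for higher-scoring broad peaks. For peaks of 1000 to below 1300 bp with scores below 100 it was 8.96% (7.96 to 10.0). Both intervals overlapped that of the members. The member nearest to another peak was chr1:182536674-182537990, whose centre lay 889 bp from that of a peak of 399 bp at chr1:182536244-182536642. The member farthest from any other peak was chr18:48206212-48207885, with 222472 bp to the nearest. When peaks with edges within 1 kb were joined and the rule was applied to the joined regions, 1920 regions passed in place of 937, and 1001 of these held no member. The count of broad regions thus depends on whether close peaks are joined, and the caller's settings are not stated in the labels or the file.

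Members also lay in stretches with more peaks than the narrower peaks as a whole. Within 500 kb on either side there was a median of 34 other peaks for members (95% interval of the median 33 to 34), 33 (32 to 34) for higher-scoring broad peaks and 26 (26 to 26) for narrower peaks with scores below 100. The member median was above that of the narrower peaks on 19 of 19 chromosomes. Values ranged from 2 to 57 in members. The count was higher in wider classes up to 1500 bp. Among peaks with scores below 100 the median was 21 for widths under 500 bp, 25 from 500 bp, 30 from 700 bp, 32 from 1000 bp and 34 from 1300 to below 1500 bp. It was 33 from 1500 bp, 30 (25 to 35) from 2000 bp and 19 (16 to 29) for the 21 members of 3000 bp or more. The values of the 21 longest members ranged from 6 around chr12:20235875-20240408 to 51 around chr14:26825142-26828383, and 5 of them had 30 or more. A group of 6 lay together at chr17:6223202-6846529 and shared its surroundings, with 15 to 27 other peaks each. Without this group the median of the remaining 15 was 25 (12 to 35), an interval that includes the median of all members. These 15 still include 3 members of 3242 bp from the repeating run on chromosome 14, with 51, 43 and 34 other peaks. Those 3 are not separate observations. The low value of the longest class thus depends in part on the chromosome 17 group, and the median without both loci was not taken.

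**Figure D4:**
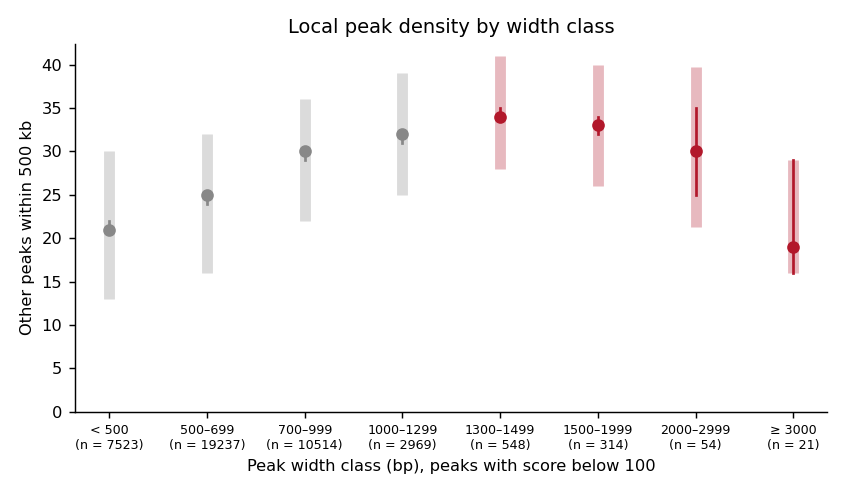
Number of other KAP1 peaks within 500 kb on either side, by width class in bp, for peaks with scores below 100; points are medians, thin lines their 95% intervals and thick bars the quartiles, with members in red. The median climbs from 21 to 34 and is 19 in the class of 3000 bp or more, where 6 of the 21 members share 1 locus and 3 another.

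Members tended to have other members nearby. Another member lay within 100 kb of 302 of 937 members, or 32.2% (29.2 to 35.3). A member lay within that distance of 25.4% (21.7 to 29.3) of the higher-scoring broad peaks and of 11.2% (10.9 to 11.5) of the narrower peaks with scores below 100. Local density differed between these sets, so the same shares were taken within classes of it. With fewer than 20 other peaks within 500 kb the share was 14.5% (17 of 117, 8.70 to 22.2) in members and 2.16% (1.91 to 2.43) in narrower peaks. From 20 to below 30 it was 23.6% (18.1 to 29.8) against 7.40% (6.94 to 7.87). From 30 to below 40 it was 36.4% (31.3 to 41.7) against 16.8% (16.1 to 17.5), and from 40 it was 41.9% (35.8 to 48.1) against 31.8% (30.5 to 33.2). Members had a higher share than narrower peaks in each of these classes. The 17 members in the least dense class include the 4 at chr17:6519701-6633879, with 15 to 19 other peaks each. They also include chr4:42341042-42342671, with 14, from the recurring layout on chromosome 4 described below. They are thus not all separate loci, and the shares by class were not taken without the recurring layouts. Among higher-scoring broad peaks the share was 6.67% (1.40 to 18.3) in the least dense class and 13.4% (8.25 to 20.1) in the next. It was 24.3% (18.7 to 30.6) from 30 to below 40 and 48.0% (38.9 to 57.2) from 40. In the densest class the share of the higher-scoring broad peaks was thus above that of the members, with overlapping intervals. The peak next to a member was itself broad in 12.2% of cases (10.1 to 14.4), against 3.11% (2.95 to 3.29) for narrower peaks. For higher-scoring broad peaks it was 8.40% (6.17 to 11.1), which overlaps the interval of the members. Neither the share near a member nor that with a broad neighbour was taken for peaks of 1000 to below 1300 bp alone. Whether these shares are particular to the members was thus not tested.

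Most members nevertheless stood alone: 635, or 67.8%, had no other member within 100 kb. Runs of at least 3 members with gaps of up to 100 kb numbered 28, lay on 12 chromosomes and held 114 members. Chromosome 17 had 7 of these runs and chromosome 15 had 4. The largest was chr14:26698179-27109728 with 18 members among 24 peaks. The next was chr15:63603333-63750676 with 7 members among 12 peaks, with widths of 1316 to 4180 bp and scores of 59.5 to 96.1. Runs of 5 members were found at chr17:30932810-31034823, with scores of 60.6 to 99.94, and at chr17:34850758-34961965, with scores of 63.4 to 97.65 and 2 broad peaks of higher score between them.

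The run on chromosome 14 repeated itself. Its peaks fell into 3 stretches that began with a member of 2223 bp, at 26698179, 26837949 and 26977563, which are offsets of 139770 and 139614 bp. In each stretch this member was followed after 1672 bp by a member of 2748 bp, then by a narrower peak of 1280 bp, a member of 1413 bp, a member of 1716 or 1730 bp, and a pair of members of 3242 and 1631 bp separated by 446 bp. Widths agreed to the base between stretches for 5 of the 6 members, and for the 1716 bp member the other 2 stretches had 1730 bp. The scores recurred as well. The 2748 bp member had 51.41, the 1413 bp member 51.24, the 3242 bp member 76 and the 1631 bp member 71.67 in all 3 stretches. The 2223 bp member had 91.93 in the first stretch and 98.31 in the other 2. The 1716 bp member had 55.73, and both 1730 bp members had 63.28. The narrower peaks did not all recur within the run: 1 of 1100 bp was listed in the first stretch only. A peak of 1125 bp followed the 1631 bp member in the first and second stretches. The third stretch was cut at the end of its 1631 bp member, so whether this peak recurs there was not examined.

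**Figure D5:**
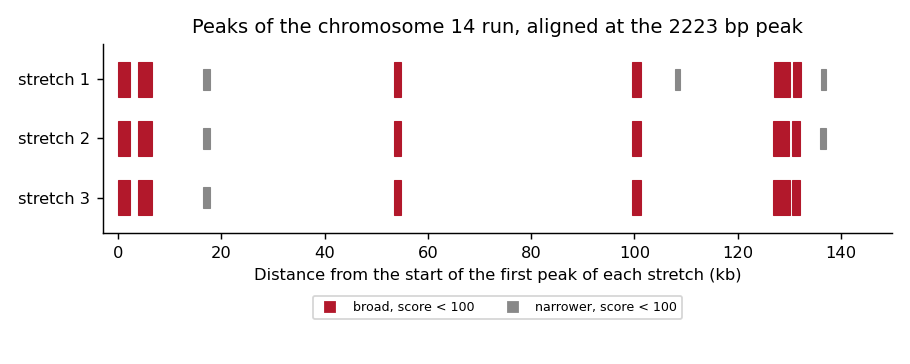
Peaks of the run on chromosome 14, drawn to scale in 3 rows aligned at the 2223 bp member, with distance in kb from the start of that member; tall red boxes are members and short grey boxes are narrower peaks. The 6 members of each row fall at nearly the same distances in all 3 rows.

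A second such arrangement lay on chromosome 4. At chr4:42032591-42041223 members of 1964, 1630 and 2744 bp followed each other with gaps of 1360 and 935 bp, and their scores were 56.48, 53.97 and 71.70. The members at chr4:42672559-42681191 had the same widths, gaps and scores. Between these, at chr4:42337363-42345995, the order was reversed: a member of 1595 bp was followed by 1 of 1630 bp with a score of 50.27 and, after a gap of 1360 bp, by 1 of 1964 bp with a score of 56.48. Each of the 3 trios spanned 8.633 kb.

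Over the whole list, adjacent peaks whose widths and gap recurred to the base elsewhere on the same chromosome, in the same or reversed order, included 20 members, or 2.13% (1.31 to 3.28). All 20 lay on chromosomes 14 and 4, with 12 and 8. The same held for 0.0944% (0.0668 to 0.130) of the narrower peaks with scores below 100 and for 0 of 524 higher-scoring broad peaks, which allows up to 0.702%. Among members of 2000 bp or more the share was 14.7% (11 of 75, 7.56 to 24.7), and below that width it was 1.04% (9 of 862). Since 2 stretches supply all of these members, the intervals are too narrow. Whether the recurring stretches share their DNA sequence was not tested. Members of such a set are not separate observations, and counting members of equal width and score on the same chromosome once left 921.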

How the data were processed

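KAP1 peaks were deposited as a list of chromosome, start, end, name and score. The submitters' processing notes list Bowtie and the mouse build mm9 and say nothing of their use. Peak names carry the MACS prefix, per the file itself. The file is titled as free of repeats, but how repeats were treated, which control library was used and how the authors' score was set are not stated there or in the labels. Peak numbers ran without a gap to 45024. Chromatin was crosslinked with 1% formaldehyde, and fragments of 200 bp from 10 ng were amplified over 18 cycles, per the labels' protocols.

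Coordinates are printed 1-based on mm9. Distances were taken between peak centres; as listed peaks do not overlap, wide peaks have a larger least distance. Shares carry exact Clopper-Pearson intervals and medians order-statistic intervals, both at 95% and for counting error only. Comparison sets were narrower peaks with scores below 100 and broad peaks with scores of 100 or more. With 1 list no test was made and no p-value is given. Analyses used Python 3.11.15, numpy 2.4.6, pandas 2.3.3 and scipy 1.17.1, and the functions were tested on simulated peaks. No mm9 sequence or annotation was used, so neither genes nor sequences are given. The RNA data from human HEL cells were not used here. Regions named were the 5 widest members, the 5 on either side of each limit, the 5 of lowest score, the 3 largest runs and the nearest and farthest members; where entries were tied or many, examples are printed. The recurring layouts, the class of 3000 bp or more, the 5 Mb windows, the chromosome 4 trios, the run of 4 on chromosome 17 and the local density were chosen after values were seen. The rule and all lists were chosen with earlier results of these data known.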

Additional observations from a re-analysis of the deposited data

How the results depend on the processing

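The number of members depends on the limits. It was 3906 with a width limit of 1000 bp, 75 with 2000 bp, 387 with scores below 70 and 1920 with the rule on joined regions. It stayed within 1.5-fold with scores below 150 (1332), scores of at least 60 (737), chromosomes X and Y included (941) and members of equal width and score counted once (921). The percent of all members that lay on a chromosome was, for instance, 9.07% (7.31 to 11.1) on chromosome 17. On each of the 19 chromosomes it stayed inside its interval as a share of covered bases and with equal peaks counted once. The share of each chromosome's peaks that were members, given in the Results, was not taken under these settings. The median distance to the nearest peak was 9035 bp between edges, 15982.5 bp to neighbours with scores of at least 60 and 15063 bp for members of 2000 bp or more. In the same order, the share within 10 kb was 53.1%, 34.2% and 40.0%. The share within 100 kb was 95.5% with the stricter neighbours and 97.3% for members of 2000 bp or more. Narrower peaks had 12796 bp between edges and 22517 bp to the stricter neighbours, so members were closer under both. Another member lay within 50 kb of 20.6% of members and within 500 kb of 66.0%, and runs numbered 14 and 96. The narrower peaks had 6.26% and 35.0%. Within 250 kb on either side members had a median of 17 other peaks and narrower peaks 13, and members of 2000 bp or more had 27 within 500 kb. Leaving out chromosome 17 or the recurring layouts kept spacing and clustering inside their intervals, with 21 and 25 runs. The joined-region, equal-peak, chromosome 17, recurring-layout, longest-member and density settings were chosen after seeing the data. Sequence and gene position were not run, because no mm9 genome was used here. No paired analysis was possible because each group is 1 library, and the list gives no depth.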

Other observations

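The X and Y chromosomes, which the rule leaves out, held 231 and 13 peaks. By width and score 4 of these would qualify, all on the X chromosome: chrX:7459126-7460821, chrX:50885382-50887261, chrX:137531257-137534007 and chrX:137584094-137585948. Their widths were 1696, 1880, 2751 and 1855 bp and their scores 88.92, 80.71, 51.07 and 85.86.

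Members with scores from 90 to below 100 had the shortest median distance to another peak of the 5 score classes, 6535 bp (95% interval 4948 to 9098.5), against 11693 bp (7655 to 13866) for those below 60. A neighbour lay within 10 kb of 60.9% of the former (52.7 to 68.8) and 46.5% of the latter (39.4 to 53.7). The intervals of these 2 classes overlapped for both values. The classes between, in order of score, had medians of 12528.5, 9994 and 10616 bp, so there was no steady trend with score. For scores from 60 to below 70 the intervals, 9325.5 to 15595.5 bp and 36.6 to 51.3%, did not overlap those of the top class. The intervals of the classes from 70 and from 80 did overlap those of the top class, for both values. These classes were formed after the values were seen.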
